A study of Mus musculus with 2 samples.

Results

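The genes described here are 8 ligands and receptors of the GDNF family and of the neurotrophins, out of 27998 genes in the files. The ligands were Gdnf, Nrtn, Ntf3 and Bdnf, and the receptors were Ret, Gfra1, Gfra2 and Ngfr. They were listed by name, and the list was chosen with earlier results of these data known. Single-cell RNA-seq (scRNA-seq) was run on mononuclear cells of C57BL/6J mice, with 1 library from quadriceps and 1 from diaphragm. The labels name no age, treatment or altered allele, and both libraries came from the same strain. Cells of several animals were combined within each tissue (10 mice in the experiment), viable cells were sorted by light scatter, and no animal can be told from another in the files. Each tissue was therefore 1 sample, no test between tissues or cell classes was possible, and the 95% intervals below cover counting error only.

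GDNF and neurturin are secreted factors that bind a membrane-anchored co-receptor of the GFRα family, and the bound complex engages the RET tyrosine kinase. GFRα1 prefers GDNF and GFRα2 prefers neurturin. Neurotrophins such as BDNF and NT-3 are made as precursors and signal through the Trk tyrosine kinases, while the p75 receptor encoded by Ngfr binds all of them. In skeletal muscle these factors are known for their support of motor and sensory neurons and of the Schwann cells that ensheathe their axons.

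Unique molecular identifiers (UMIs) numbered 50854519 over 5159 quadriceps barcodes and 28545242 over 2499 diaphragm barcodes. Barcodes with at least 1000 UMIs were used, 5010 and 2432 of them. A total of 5 barcodes were present in both libraries. Fibro/adipogenic progenitors (FAPs), the mesenchymal stromal cells of muscle, were barcodes with at least 1 Pdgfra UMI and at least 50 Dcn UMIs. They numbered 2339 in quadriceps, 46.7% of the barcodes used, and 2010 in diaphragm, 82.6%. Just outside the gate, with 40 to 49 Dcn UMIs, lay 33 and 9 barcodes, and just inside it, with 50 to 59, lay 27 and 10. Other classes were clusters of the barcodes outside the gate, named from marker lists. The smooth muscle or mural cell-like class (smooth muscle below) had 993 barcodes in quadriceps and 35 in diaphragm, and the Schwann cell-like class had 160 and 2. All 12 Schwann markers on the list were raised in the Schwann cluster, Mbp among them, and 8 of the smooth muscle markers were raised in the smooth muscle cluster, led by Tagln and Acta2. Smooth muscle barcodes were rich in mitochondrial UMIs, at a median of 16.9% in quadriceps. Levels are a gene's UMIs per 1000000 UMIs of a class (CPM), summed over its barcodes. Each captured molecule is counted once at its 3′ end, so CPM is not divided by gene length.

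Gdnf, the founding ligand of its family, had no UMI in gated FAPs and most of its UMIs in smooth muscle. The gene lies at chr15:7810846-7837575 (GRCm38, plus strand), and no other gene is annotated over it. Of its 22 UMIs in the quadriceps library, 20 were in smooth muscle barcodes and 2 in satellite cell-like barcodes, satellite cells being the stem cells of muscle fibers. The smooth muscle level was 1.31 CPM (interval 0.802 to 2.03), from 16 of 993 barcodes, and the 2 satellite UMIs gave 2.01 CPM (0.244 to 7.27), an interval that held it. Gated FAPs held 0 Gdnf UMIs in both tissues, which allows a level of up to 0.113 CPM in quadriceps and 0.116 CPM in diaphragm. The diaphragm library held 1 Gdnf UMI in all, in a FAP-like barcode that missed the gate, and with 35 smooth muscle barcodes its limit there was 6.91 CPM, above the quadriceps level, so a like level in diaphragm smooth muscle was not detectable at this depth.

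Ntf3, which encodes neurotrophin-3, was the ligand with the most UMIs and was shared between smooth muscle and FAPs. Its locus is chr6:126101412-126166910 (minus strand). In quadriceps its 2887 UMIs were divided into 1254 in smooth muscle and 1381 in gated FAPs. The smooth muscle level was 82.3 CPM (77.8 to 87.0), the satellite cell-like level was 70.5 CPM (54.9 to 89.1) and the FAP level was 52.0 CPM (49.3 to 54.8). The intervals of smooth muscle and satellite cells overlapped, and that of FAPs lay just below both. An unnamed cluster led by Rgs5, a pericyte gene, stood at 55.8 CPM (45.4 to 67.9), overlapping satellite cells and FAPs. Tenocyte-like cells, the fibroblasts of tendon, followed at 29.3 CPM (17.9 to 45.2), and Schwann cells at 6.49 CPM from 5 UMIs. In diaphragm, smooth muscle stood at 71.4 CPM (48.5 to 101) and satellite cells at 55.6 CPM (20.4 to 121), while FAPs stood at 18.1 CPM (16.5 to 19.8). The quadriceps and diaphragm intervals overlapped in smooth muscle and in satellite cells, and in FAPs they did not.

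Windows from 250 bases before to 50 after a RefSeq start (GRCm38.p6) are shown for Gdnf (upstream start only) and Ntf3. Both ligands had smooth muscle UMIs, as did Bdnf and Nrtn, and in gated FAPs Gdnf had no UMI while Ntf3 had many. RefSeq windows were found for 6 of the 8 genes. Motifs were searched on both strands: the TATA box as TATAAA, and the CArG box, the element bound by serum response factor in contractile genes. TATAAA was found in 13.6% of 32817 windows of the genome and a CArG box in 1.63%. Among the 14 windows of these genes only 1, the upstream Gdnf window, held TATAAA, at position -31 from the start and in capitals below. No CArG box was found in any of the 14, a description of these letters only.
Gdnf window, chr15:7809798-7810097, plus strand: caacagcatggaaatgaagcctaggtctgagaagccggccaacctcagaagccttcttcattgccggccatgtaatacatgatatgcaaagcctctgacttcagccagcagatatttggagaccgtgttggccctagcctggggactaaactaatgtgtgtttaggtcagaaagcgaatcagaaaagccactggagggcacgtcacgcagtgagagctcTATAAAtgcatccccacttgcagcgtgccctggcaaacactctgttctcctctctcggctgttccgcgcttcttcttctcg
Ntf3 upstream window, chr6:126166695-126166994, minus strand: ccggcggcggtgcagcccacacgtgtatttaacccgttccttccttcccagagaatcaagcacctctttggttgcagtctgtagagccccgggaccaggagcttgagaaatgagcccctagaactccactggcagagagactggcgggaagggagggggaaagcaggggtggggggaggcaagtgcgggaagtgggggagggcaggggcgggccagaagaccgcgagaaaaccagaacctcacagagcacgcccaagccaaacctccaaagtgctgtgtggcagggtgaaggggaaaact
Ntf3 downstream window, chr6:126164911-126165210, minus strand: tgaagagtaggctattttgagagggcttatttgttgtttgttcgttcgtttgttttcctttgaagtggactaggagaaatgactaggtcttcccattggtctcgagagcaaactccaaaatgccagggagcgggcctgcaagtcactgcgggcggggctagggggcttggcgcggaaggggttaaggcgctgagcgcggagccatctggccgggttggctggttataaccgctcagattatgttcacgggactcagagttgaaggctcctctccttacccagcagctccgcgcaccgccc

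Bdnf, brain-derived neurotrophic factor, had few UMIs, in smooth muscle in quadriceps and in barcodes with mesothelial markers in diaphragm. It is annotated at chr2:109674700-109727007 (plus strand), where an antisense transcript, Gm45346, overlaps it on the other strand. In quadriceps, 28 of 31 UMIs were in smooth muscle, at 1.84 CPM (1.22 to 2.66) from 20 barcodes, and gated FAPs held 0. In diaphragm, smooth muscle held 1 UMI. Of the 36 diaphragm UMIs, 20 were in gated FAPs and 15 in 12 barcodes outside the gate that belonged to an unnamed cluster. Mesothelial markers, such as Upk3b and Msln, are genes of the epithelium that lines body cavities. The FAP UMIs came from 3 barcodes, and 19 of them from the 2 gated FAPs with at least 3 mesothelial markers. The other 2008 gated FAPs of diaphragm held 1 Bdnf UMI. Over all diaphragm barcodes with at least 3 mesothelial markers, 7 of 13 had Bdnf, with 34 UMIs in sum. No quadriceps barcode had 3 mesothelial markers.

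Nrtn, which encodes neurturin, was highest, among whole classes of quadriceps, in tenocyte-like cells. The gene lies at chr17:56751325-56757530 (minus strand). In quadriceps its tenocyte level was 30.7 CPM (19.0 to 47.0) from 11 of 90 barcodes, 7 of the 21 UMIs being in 1 barcode. The Rgs5-led cluster stood at 10.6 CPM (6.38 to 16.6) and smooth muscle at 4.53 CPM (3.52 to 5.73), with 69 of the library's 179 UMIs. Gated FAPs stood at 2.26 CPM (1.72 to 2.91) in quadriceps and 1.08 CPM (0.717 to 1.56) in diaphragm. In diaphragm, smooth muscle had 9.21 CPM from 4 UMIs (2.51 to 23.6), an interval that held the quadriceps value.

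**Figure D1:**
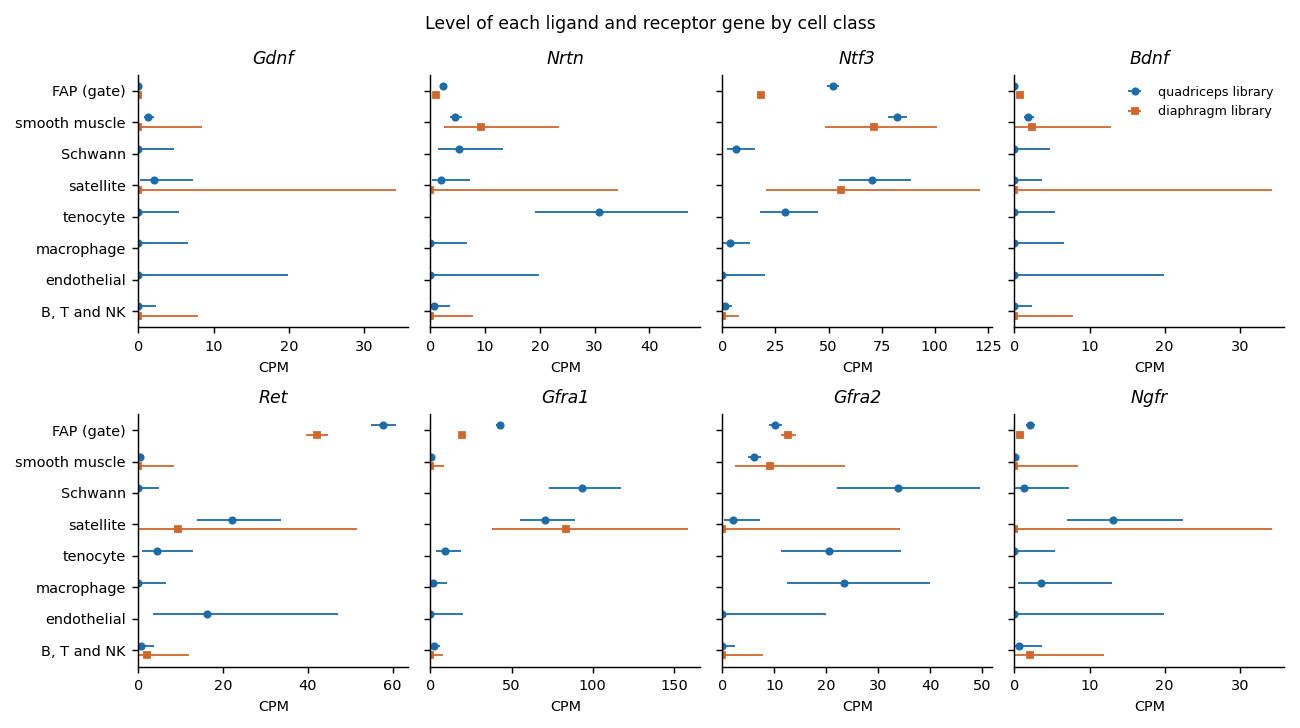
Level (CPM, linear axis from 0) of the 8 genes in gated FAPs, 7 other classes, lymphoid cells pooled, with at least 20 barcodes in a library (FAP-like barcodes that missed the gate are not drawn), with exact Poisson 95% intervals from counting alone; blue circles are the quadriceps library and orange squares the diaphragm library. Among the classes drawn, Ret is highest in FAPs, at 57.7 and 42.1 CPM, Gfra1 and Gfra2 are at 93.5 and 33.8 CPM in quadriceps Schwann cells, and Gdnf has no UMI in FAPs.

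Ret, the signaling kinase of the GDNF family, had most of its UMIs in gated FAPs in both libraries. Its locus, chr6:118151745-118197718 (minus strand), overlaps no other gene. Gated FAPs held 1533 of its 1645 UMIs in quadriceps, 93.2%, and 1092 of 1152 in diaphragm, 94.8%. Of all UMIs of the barcodes used, gated FAPs held 26559263 of 50741165 in quadriceps and 25965824 of 28496994 in diaphragm. The diaphragm share of Ret was therefore near that of all UMIs. The FAP level was 57.7 CPM (54.9 to 60.7) in quadriceps and 42.1 CPM (39.6 to 44.6) in diaphragm. FAP-like barcodes that missed the gate, from clusters made up mostly of gated FAPs, stood at 48.3 CPM (37.3 to 61.5) and 59.8 CPM (44.1 to 79.3), and both intervals overlapped those of the gated cells. Satellite cell-like barcodes of quadriceps followed at 22.2 CPM (13.9 to 33.5). The 20 satellite cell-like barcodes of diaphragm had 1 Ret UMI, or 9.27 CPM (0.235 to 51.7), an interval that overlapped that of FAPs. A low-depth unnamed cluster of 36 quadriceps barcodes (median 1732.5 UMIs) had 7 Ret UMIs, or 108 CPM (43.4 to 222), and its interval overlapped that of FAPs. Smooth muscle was at 0.394 CPM, 6 UMIs in 993 barcodes, and Schwann cells held 0, which allows up to 3.89 CPM.

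Gfra1, the co-receptor that prefers GDNF, was found in FAPs, Schwann cells and satellite cells. It is annotated at chr19:58235604-58455909 (minus strand), with an antisense transcript, Gm16277, over it. In quadriceps the level was 93.5 CPM (73.1 to 118) in Schwann cells, 70.5 CPM (54.9 to 89.1) in satellite cells and 42.6 CPM (40.1 to 45.1) in gated FAPs. The intervals of Schwann and satellite cells overlapped, and that of FAPs lay below them. Because FAPs were so many, they still held 81.9% of the 1381 UMIs. The highest level in a group of at least 20 barcodes outside the gate was 201 CPM (153 to 260), in an unnamed cluster of 20 quadriceps barcodes that had both Schwann markers and markers of perineurial cells, the sheath cells of nerve. In diaphragm, satellite cells stood at 83.5 CPM (38.2 to 158) and FAPs at 19.6 CPM (17.9 to 21.3), and the 2 Schwann cell-like barcodes had 1 UMI. Smooth muscle had 5 UMIs in quadriceps, 0.328 CPM, and 0 in diaphragm.

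Gfra2, the co-receptor that prefers neurturin, was spread more widely. The gene lies at chr14:70890120-70979838 (plus strand). In quadriceps the cluster with Schwann and perineurial markers stood at 86.6 CPM (56.1 to 128), Schwann cells at 33.8 CPM (22.0 to 49.5), macrophage or monocyte-like cells at 23.3 CPM (12.4 to 39.9) and tenocyte-like cells at 20.5 CPM (11.2 to 34.4). The last 3 intervals overlapped. Gated FAPs, at 10.1 CPM (8.92 to 11.4), had an interval that overlapped that of tenocyte-like cells and lay below the others, and smooth muscle, at 6.04 CPM (4.87 to 7.40), lay below FAPs. A cycling cluster led by Top2a had 11 UMIs in 3 of its 27 quadriceps barcodes. Diaphragm FAPs stood at 12.6 CPM (11.3 to 14.1), and 10 diaphragm macrophage-like barcodes had 7 UMIs.

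Ngfr, the p75 receptor, was scarce. The libraries held 86 and 25 UMIs of it, from chr11:95568818-95587735 (minus strand). Satellite cell-like barcodes of quadriceps stood at 13.1 CPM (6.97 to 22.4), from 13 barcodes with 1 UMI each. The Top2a-led cluster, with 5 UMIs, and the cluster with Schwann and perineurial markers, with 4, had intervals that held this level. Gated FAPs stood at 2.07 CPM (1.56 to 2.70) in quadriceps and 0.809 CPM (0.501 to 1.24) in diaphragm. Schwann cells, in which Ngfr is a known marker of the non-myelinating and immature states, had 1 UMI in 160 barcodes, or 1.3 CPM (0.0329 to 7.23). The raised markers of that cluster included the myelin genes Mbp and Prx.

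A UMI of one of these genes was rare in any single cell, and depth differed between classes, so barcodes were also thinned to 1000 UMIs each. After thinning, 6.33% of quadriceps FAPs had a Ret UMI (exact binomial interval 5.37 to 7.39) and 3.98% of diaphragm FAPs (3.17 to 4.93). Without thinning the shares were 32.6% and 28.6%, at median depths of 10782 and 12575.5 UMIs. For Ntf3 the thinned shares were 5.22% (4.35 to 6.20) and 2.44% (1.81 to 3.21), for Gfra1 3.93% (3.18 to 4.80) and 1.94% (1.38 to 2.64), and for Gfra2 1.20% and 1.24%. The order of tissues was that of the CPM for each of these 4 genes, and the intervals of the tissues overlapped for Gfra2 alone. B, T and NK cell-like barcodes, which should lack these genes, served as background: none of 405 in quadriceps had Ret, Ntf3, Gfra1 or Gfra2, which allows a share of up to 0.741%, and none of 93 in diaphragm, which allows up to 3.23%. Their median depths before thinning were 3507 and 4419 UMIs. In quadriceps, the interval in FAPs lay wholly above the lymphoid interval for Ret, Ntf3 and Gfra1, and for Nrtn and Ngfr the FAP share, 0.0855% for each, did not stand above the lymphoid share of 0.247%, 1 of 405 barcodes, so the thinned shares separated neither gene from background. In diaphragm the 93 lymphoid barcodes set too high a limit for any of the 8 genes to be separated.

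Among the gated FAPs, Ret, Gfra1 and Ntf3 differed many-fold between subclusters. The FAPs of both tissues were clustered again without these 8 genes or their pathway list, which gave 11 subclusters. Subcluster 3, led by Cxcl14, Hsd11b1 and Mme, was high in all 3 genes. In its 380 quadriceps barcodes Ret stood at 162 CPM (149 to 176), Gfra1 at 145 CPM (132 to 158) and Ntf3 at 104 CPM (93.5 to 115). In its 258 diaphragm barcodes the levels were 86.3 CPM (76.0 to 97.6), 78.1 CPM (68.3 to 88.9) and 37.5 CPM (30.8 to 45.2). Subcluster 5, led by the chemokine gene Ccl2 with Thbs1 and Nppc, had as much Ret in quadriceps, at 164 CPM (145 to 185). In diaphragm its Ret level was 109 CPM (97.7 to 121), an interval just above that of subcluster 3. It had less Gfra1, at 76.3 CPM (63.4 to 91.0) in quadriceps and 46.3 CPM (39.1 to 54.5) in diaphragm. A different balance was seen in subcluster 2, led by Stmn4, Cmah and Fam167a and rich in Fbn1, where Ret stood at 76.3 CPM and 75.1 CPM, Gfra1 at 10.6 CPM and 6.38 CPM, and Ntf3 at 17.4 CPM and 4.35 CPM. Subcluster 6, led by Dmkn and Sbsn, had little Ret or Ntf3. In it Ret was 5.14 CPM in quadriceps and 2.33 CPM in diaphragm, and Ntf3 was 1.51 CPM and 2.33 CPM.

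Subcluster 8, led by Apod and Angptl7, was small and had high levels of Gfra1, Gfra2 and Ngfr. It had 52 barcodes in quadriceps and 5 in diaphragm. In quadriceps Gfra1 stood at 273 CPM (228 to 325), Gfra2 at 180 CPM (144 to 223) and Ngfr at 91.1 CPM (65.9 to 123). Of the 1131 Gfra1 UMIs of quadriceps FAPs, 129 were in this subcluster and 521 in subcluster 3. These 52 barcodes, 2.22% of the quadriceps FAPs, held 85 of the 268 Gfra2 UMIs and 43 of the 55 Ngfr UMIs of the gate. Ret was 55.1 CPM (36.0 to 80.7) in them, an interval that held the average of all quadriceps FAPs, and Ntf3 had 1 UMI. Over both tissues, 1 barcode of the subcluster had at least 3 Schwann markers and 3 had at least 3 smooth muscle markers. The 5 diaphragm barcodes had 15 Gfra1 UMIs and 8 Gfra2 UMIs, and each of the 5 had both genes. Outside subcluster 8, among subclusters with at least 20 barcodes of a tissue, Gfra2 was highest in diaphragm subcluster 3, at 39.6 CPM (32.7 to 47.4) from 40 barcodes, against 6.66 CPM (4.27 to 9.91) from 17 barcodes in quadriceps.

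Nrtn was found in a few FAP subclusters. In quadriceps it stood at 7.21 CPM (4.62 to 10.7) in subcluster 1, led by C4b and Gdf10, from 14 barcodes. It stood at 39.1 CPM (24.2 to 59.8) in the 44 quadriceps barcodes of subcluster 4, led by Fmod and Tnmd, genes of tendon, and at 1.06 CPM in its 438 diaphragm barcodes. The quadriceps value of subcluster 4 rested on 5 barcodes, 10 of its 21 UMIs being in 1 of them. Subcluster 9, led by Tagln and Acta2, had 55 quadriceps barcodes at a median of 23918 UMIs, and all 55 had at least 3 smooth muscle markers. Its Ntf3 level was 72.4 CPM (58.7 to 88.4), an interval that held the smooth muscle level.

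**Figure D2:**
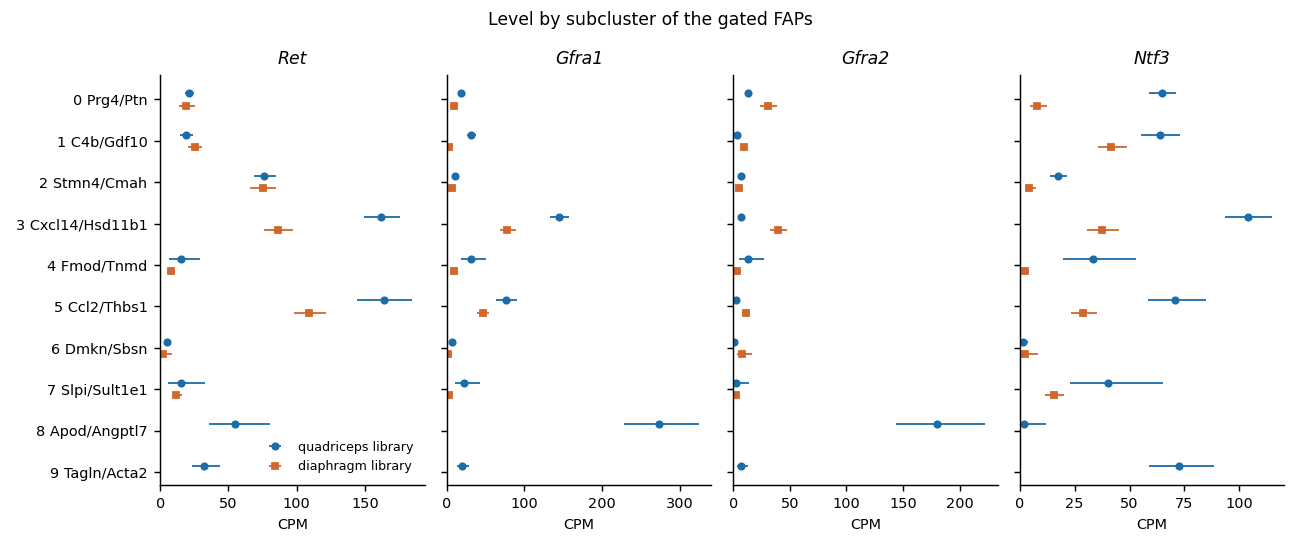
Level (CPM, linear axes from 0) of Ret, Gfra1, Gfra2 and Ntf3 in subclusters of the gated FAPs with at least 20 barcodes in a library, named by number and 2 leading genes; bars are exact Poisson 95% intervals from counting. Ret peaks in subclusters 3 and 5, at 162 and 164 CPM in quadriceps, and Gfra1 and Gfra2 peak in subcluster 8, at 273 and 180 CPM.

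Ret and Gfra1 were often seen in the same barcode. In quadriceps, 324 of the 762 FAPs with a Ret UMI also had Gfra1, 42.5%, against 15.2% of FAPs without Ret. In diaphragm, 148 of 574 did, 25.8% against 8.70%. Within subcluster 3 the shares were 71.7% against 49.6% in quadriceps and 52.5% against 36.8% in diaphragm. Within subcluster 5 they were 51.0% against 29.3% and 34.7% against 31.7%. Deeper barcodes are more likely to have any gene, and the part of depth in these shares was not tested. Ret and Gfra2 shared fewer barcodes: 7.87% of quadriceps FAPs with Ret had Gfra2 against 6.79% of those without, and 10.8% against 7.52% in diaphragm.

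Between the tissues, Ntf3 and Gfra1 were lower in diaphragm FAPs by the rule used here. In this and the later comparisons, a gene with at least 20 UMIs over both groups was called higher or lower when log2 of its CPM plus a pseudocount of 1 CPM differed by at least 1, a rule of size and not a test. By this rule 4.72% of 13685 genes were lower in diaphragm and 3.01% were higher. Of the 8 members, 7 had enough UMIs, 2 were lower and 0 higher, and their median log2 difference was -0.65 beside -0.10 over all genes. Ntf3 was 2.87-fold lower (interval of the ratio of counts 2.59 to 3.20) and Gfra1 2.18-fold lower (1.96 to 2.42). The call of Gfra1 was lost under the median of ratios, at a log2 difference of -0.99, and with a pseudocount of 5 CPM, at -0.95. Ret was 1.37-fold lower (1.27 to 1.48), Nrtn 2.09-fold (1.32 to 3.41) and Ngfr 2.56-fold (1.52 to 4.46) lower in CPM, both from few UMIs and short of the call once the pseudocount was added. Gfra2 was 1.25-fold higher (1.06 to 1.48). Bdnf rested on the barcodes with mesothelial markers described above, and Gdnf had no UMI in FAPs of either tissue.

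The make-up of the FAPs differed between the libraries: subclusters 4 and 7 held 21.8% and 12.4% of diaphragm FAPs and 1.88% and 1.33% of quadriceps FAPs, and subcluster 0 held 8.71% against 28.0%. The tissue difference was therefore also read within subclusters that had at least 20 barcodes of each tissue and 20 UMIs of the gene. Ntf3 was lower in diaphragm in all 7 such subclusters, and 2-fold or more in 6, with log2 differences from -3.39 to -0.60. Gfra1 was lower in all 8, and 2-fold or more in 4, from -3.20 to -0.65. Its intervals in subclusters 2 and 6 held equal levels, and subcluster 6, which was past 2-fold, had 1 diaphragm UMI. For Ret, 6 of 7 were lower and none reached 2-fold, the range being -0.90 to 0.41. Only in subclusters 3 and 5 did the Ret interval lie wholly below equal levels. Gfra2 went both ways, with 4 of 6 subclusters 2-fold higher in diaphragm and 2 lower, 1 of them by 2-fold, from -1.75 to 2.40. Subcluster 8, where Gfra2 was highest, had too few diaphragm barcodes to enter. FAPs with over 5% mitochondrial UMIs, 570 in quadriceps and 441 in diaphragm, had higher levels of Ntf3, Gfra1, Gfra2 and Ret than the rest. The intervals above and below 5% overlapped for Ntf3 in both tissues and for Ret in diaphragm. For Gfra1 and Gfra2 they did not overlap in either tissue. At or below 5%, Ntf3 stood at 50.3 CPM in quadriceps and 17.1 CPM in diaphragm, and Gfra1 at 39.6 and 16.8 CPM. Above 5%, Ntf3 stood at 58.0 and 22.4 CPM and Gfra1 at 53.5 and 32.1 CPM, a Gfra1 difference short of 2-fold. Each library was 1 pool of animals, so tissue and library cannot be told apart in any of these differences.

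**Figure D3:**
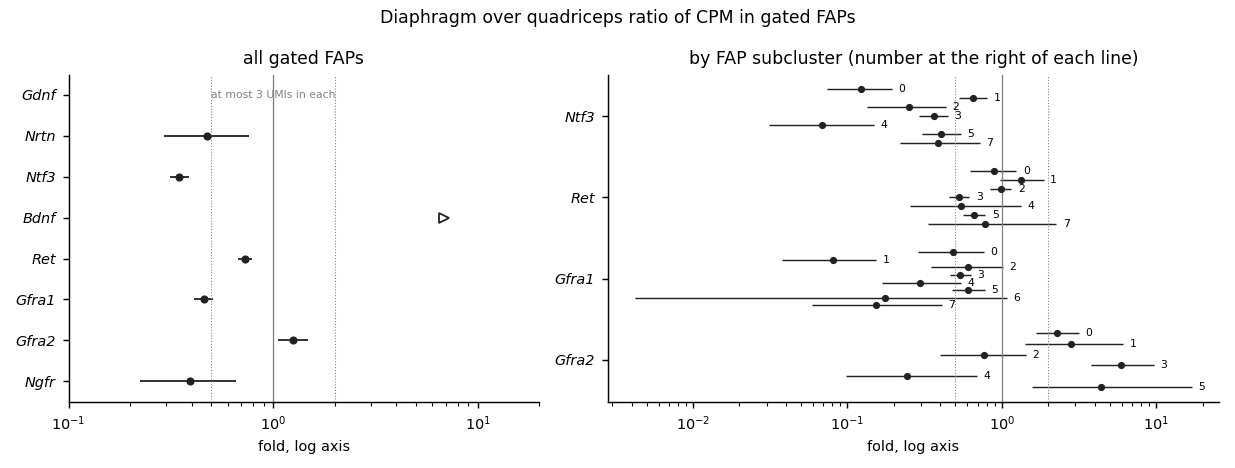
Diaphragm over quadriceps ratio of CPM (log axes) in all gated FAPs at left and by FAP subcluster at right, with exact 95% intervals of the ratio of counts; the open triangle is a lower bound, the solid line marks equal levels and dotted lines 2-fold. The points of Ntf3 and Gfra1 lie left of the solid line in every subcluster shown, and those of Gfra2 on both sides of it. The Gfra1 intervals of subclusters 2 and 6 cross the line.

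Schwann cells of quadriceps carried the co-receptors without Ret. Against quadriceps FAPs, Gfra2 was 3.34-fold higher in Schwann cells (2.15 to 5.01) and Gfra1 2.19-fold higher (1.70 to 2.79). Ret, with 0 UMIs against 1533, was 14.8-fold lower, taking 3 counts as the floor of the Schwann class. The lower limit of its interval was 12.0-fold. Ntf3 was 8.01-fold lower (3.42 to 24.7). The differences of Nrtn, 2.30-fold higher (0.607 to 6.20), and Ngfr, 0.627-fold (0.0156 to 3.64), were within counting error. Of 6 members with enough UMIs, 2 were called higher and 2 lower, beside 14.3% and 23.3% of 12955 genes. Of the 2 lower ones, Ret had 0 UMIs in Schwann cells and reached the UMIs needed through FAPs alone. That limit fixed its direction, so no conclusion is drawn from the count of lower members beside the share of all genes. Higher genes made up 38.0% of all calls, and 24.8% when CPM was rescaled by the median of ratios over genes, which moved the median of all genes by -0.36. Under that scaling Gfra2 was still past 2-fold and Gfra1, at a log2 difference of 0.73, was not. Only 21 of the 160 Schwann barcodes had at most 5% mitochondrial UMIs. The 2 diaphragm barcodes allowed no comparison.

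Gdnf and Bdnf were higher, and Ret, Gfra1 and Ngfr lower, in quadriceps smooth muscle than in FAPs. Against a floor of 3 counts over the quadriceps FAPs, Gdnf was 11.6-fold higher and Bdnf 16.3-fold higher. The lower limits of their intervals of the ratio of counts were 8.60 and 12.4. With a pseudocount of 5 CPM neither was called. Ntf3 was 1.58-fold higher (1.46 to 1.71) and Nrtn 2.0-fold (1.40 to 2.88), neither being called. Ret was 147-fold lower (67.2 to 400), Gfra1 130-fold lower (55.5 to 401), and Ngfr, with 1 UMI, 31.6-fold lower (5.43 to 1269). Gfra2 was 1.67-fold lower (1.31 to 2.14) and not called. All 8 members had enough UMIs, 2 being higher and 3 lower, beside 10.8% and 28.1% of 13337 genes. The 2 higher ones, Gdnf and Bdnf, had 0 UMIs in FAPs and reached the 20 UMIs needed through smooth muscle alone. That limit fixed their direction, so no conclusion is drawn from their count beside the share of all genes. At least 3 smooth muscle markers were found in 81 quadriceps FAPs. With FAPs of this kind, or with Schwann or mesothelial markers, left out, Nrtn was also past the limit, at a log2 difference of 1.01, and 3 members were higher and 3 lower.

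In diaphragm, 35 smooth muscle barcodes gave wider intervals. Ntf3 was 3.94-fold higher than in FAPs (2.65 to 5.67) and Nrtn 8.54-fold higher (2.18 to 24.4), the latter from 4 UMIs. Ret and Gfra1, with 0 UMIs in smooth muscle, were 6.09-fold and 2.83-fold lower against a floor of 3 counts. The lower limits of their intervals were 4.94-fold and 2.30-fold. Of 7 members tested by size, 2 were higher and 2 lower, beside 11.3% and 36.4% of 12611 genes. The 2 lower ones, Ret and Gfra1, had 0 UMIs in smooth muscle and reached the UMIs needed through FAPs alone. That limit fixed their direction, so no conclusion is drawn from their count beside the share of all genes. Higher genes were 23.7% of all calls, and 12.8% under the median of ratios, which moved the median of all genes by -0.45. In quadriceps smooth muscle the same scaling moved it by 0.26, and leaving mitochondrial genes out of the total moved it by 0.17 and, in diaphragm, by 0.21. Whether the ratio of Ntf3 in smooth muscle over FAPs differed between the tissues was not tested.

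**Figure D4:**
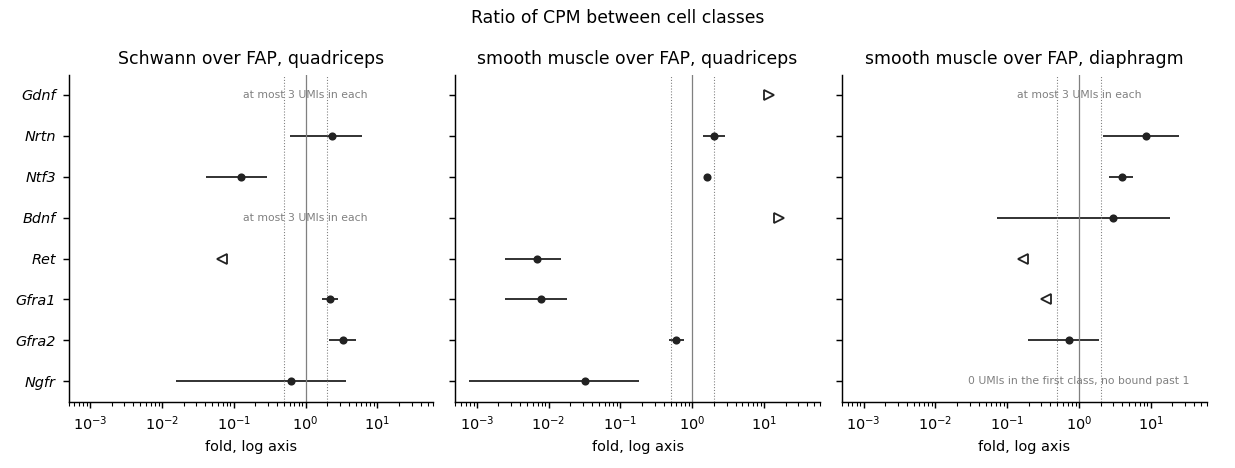
Ratio of CPM between classes (log axes) for the 8 genes, with exact 95% intervals of the ratio of counts. Open triangles are ratios against a floor of 3 counts, the solid line marks equal levels and dotted lines 2-fold. Ret lies left of the line in each panel, and Gfra1 lies right of it in Schwann cells, at 2.19-fold, and left of it in smooth muscle.

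The wider pathway was read from a list of 44 genes, of which 43 were in the files and 26 reached 20 CPM in a class of at least 20 barcodes. Of 34 listed genes with enough UMIs, 5 were called higher and 1 lower in diaphragm FAPs, beside 3.01% and 4.72% of all genes. Ntrk2, the BDNF receptor TrkB, stood at 118 CPM in quadriceps FAPs and 239 CPM in diaphragm FAPs, where it was 2.01-fold higher (1.93 to 2.10). Ntrk3, the NT-3 receptor TrkC, was 5.89-fold higher in diaphragm FAPs (4.94 to 7.06), at 33 CPM against 5.61 CPM, while Ntf3 was lower there. Gdf15, a distant ligand of a RET complex, and Tnfrsf19, named here after its values were seen, were also higher, at 6.97 CPM and 2.43 CPM in diaphragm, and Rtn4rl1 was the lower one, at 12.4 CPM against 33.5 CPM.

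Artn, the ligand artemin, stood at 5.12 CPM in quadriceps smooth muscle and 1.77 CPM in FAPs. Its co-receptor gene Gfra3 had 5 UMIs, in the cluster with Schwann and perineurial markers, and 0 in FAPs. Gfra4, the co-receptor of persephin, reached 22.0 CPM in tenocyte-like cells, and Pspn itself, like Ntf5, had 1 UMI in quadriceps FAPs. Gfral, the GDF15 receptor, had no UMI in any class of at least 20 barcodes. Ntrk3 stood at 43.8 CPM in quadriceps smooth muscle and 64.5 CPM in diaphragm smooth muscle. Against FAPs, 6 of 32 listed genes were called higher and 12 lower in Schwann cells, beside 14.3% and 23.3% of all genes. In quadriceps smooth muscle 5 of 31 were higher and 7 lower, beside 10.8% and 28.1%, and in diaphragm smooth muscle 8 of 33 were higher and 10 lower, beside 11.3% and 36.4%. Some calls in Schwann cells and diaphragm smooth muscle rested on 0 to 3 UMIs in that class, with intervals that held equal levels. Artn, with 3 UMIs in diaphragm smooth muscle (0.866 to 13.7), was among them. These counts are therefore descriptions only.

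Co-receptors and sorting receptors had class patterns of their own. Sort1, sortilin, which partners p75 at pro-neurotrophins, stood at 115 CPM in quadriceps smooth muscle and 140 CPM in diaphragm smooth muscle, against 9.68 and 10.7 CPM in FAPs. Sorcs1, of the same receptor family, stood at 152 CPM in Schwann cells and 0.489 CPM in quadriceps FAPs. Sdc3, a proteoglycan that binds GDNF, had 77 UMIs in Schwann cells, an interval of 78.9 to 125 CPM, against 10.3 CPM in quadriceps FAPs. Ncam1, an alternative GDNF receptor with GFRα1, was highest in satellite cells, at 268 CPM in quadriceps and 269 CPM in diaphragm, the class in which Gfra1 was 70.5 and 83.5 CPM. Sorl1 was highest in B cell-like barcodes, at 129 CPM in quadriceps.

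Among adaptors, Gab1, a docking protein of receptor kinases, stood at 118 CPM in Schwann cells, and Maged1, a p75 partner, at 136 and 146 CPM in FAPs. Kidins220, a membrane substrate of Trk and p75 signaling, stood at 40.4 and 36.6 CPM in FAPs. Of the proprotein convertases, a family that cleaves neurotrophin precursors, Pcsk6 stood at 375 CPM in quadriceps FAPs and 647 CPM in diaphragm FAPs, and Pcsk5 at 74.3 and 143 CPM. Plat, the plasminogen activator upstream of plasmin, stood at 195 and 326 CPM. Furin was at 41.8 and 42.0 CPM in FAPs of the 2 tissues.

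The genes with the pattern most like each member were taken over 24 class-by-tissue units of at least 20 barcodes, which share 2 libraries and differ in depth, so the correlations of log2(CPM + 1) are descriptions. Members with at least 100 UMIs were compared with 12704 genes, and the 3 highest were kept. For Ret they were Prdm8 (r = 0.882), Coro2b (0.869) and Dchs1 (0.863), for Gfra1 Acot1 (0.872), Epb41l4b (0.851) and Plxna3 (0.850), and for Gfra2 Stxbp6 (0.870), Sema5a (0.868) and B4galt6 (0.862). For Ntf3 they were Dzip1l (0.882), Podxl2 (0.879) and Tbx3 (0.870). For the scarcer members they were Fbxo2 (0.909), P2rx5 (0.898) and Angpt4 (0.883) for Nrtn, and Gdf9 (0.882), Pak3 (0.811) and Arhgap33 (0.772) for Ngfr. None of these 18 genes is on the pathway list.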

How the data were processed

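Mononuclear cells of mouse quadriceps and diaphragm were measured by 10x droplet scRNA-seq, 1 library per tissue. Deposited values were the authors' raw UMI counts for each gene and barcode (Cell Ranger 3.0.0, mm10, per the labels). Barcodes with at least 1000 UMIs were used, with no mitochondrial limit, since a limit of 5% left no smooth muscle barcode. Clusters were made with scanpy 1.11.5 and leidenalg 0.10.2 (2000 variable genes without the 8 members and the pathway list, 20 components, 20 neighbors, resolution 1.0; FAPs again with 10 components and resolution 0.5). A class needed at least 3 raised markers, 1 of its own and fewer than 2 of another list among its 10 leading genes; clusters with at least 50% gated FAPs and no such markers gave the FAP-like class. These rules were set after the clusters were seen. No doublets were removed; Scrublet calls (104 and 2) were left out as an alternative. Counts were summed per class and scaled to CPM with exact Poisson intervals, and ratios had exact conditional binomial intervals, checked on simulated counts. A level of 0 was limited by 3 counts. All 8 members are named in every class, with listed pathway genes of at least 20 CPM in a class or that are ligands or receptors. Members and lists were chosen with earlier results of these data known. Gene positions came from GENCODE M21 (GRCm38). The 3′ counting is per strand, so antisense partners are counted apart. Some genes of the marker and pathway lists are not reported here by name.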

Additional observations from a re-analysis of the deposited data

How the results depend on the processing

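No paired analysis was possible because each tissue had 1 library and a shared replicate number pairs nothing. Over all alternatives, 223 single-gene ratios were rated the same, 44 were rated moved, and 0 called ratios changed sign. A rating of the same does not place a ratio within its counting interval. With the pseudocount, Bdnf between the tissues had a log2 ratio of 0.82, while its interval of the ratio of counts began at 2.34. Of the counts of members called, 71 stayed within 1.5 times and 9 did not. In diaphragm over quadriceps FAPs, 2 members were lower and 0 higher. With a pseudocount of 0.1 CPM 4 were lower and 1 higher, with 5 CPM 1 was lower, and with the median of ratios 1 was lower, Gfra1 being at a log2 ratio of -0.99. In Schwann cells over FAPs, where 2 were higher and 2 lower, a limit of 5% mitochondrial UMIs left 21 Schwann barcodes and gave 1 higher and 4 lower, and the median of ratios gave 1 higher. In quadriceps smooth muscle, where 2 were higher, a pseudocount of 5 CPM gave 0. Unthinned, 4 members stood above lymphoid cells in diaphragm FAPs, and thinned 0 did. Median depths before thinning were 12575.5 UMIs in these FAPs and 4419 in lymphoid cells. The share of all genes above lymphoid cells is not given here, so no conclusion about the members is drawn. The other counts under changed settings also lack the share of all genes and show only how the calls moved. The mitochondrial limit was not run for smooth muscle, where it left 0 barcodes. Alternatives leaving out FAPs with markers of another class or adding the Rgs5-led cluster were chosen after seeing the data and moved no count of calls by over 1.5 times. The cause of these changes was not tested, and Gdnf, Bdnf, Nrtn and Ngfr are limited by their counts.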
